A study of Mus musculus with 15 samples.

Results

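The cell-to-cell machinery of the Notch pathway was examined as 39 genes in splenic regulatory T cells (Treg), with signalling by Notch1 forced on, its DNA-binding partner RBPJ deleted, or both. The genes encode 5 ligands, 2 receptors, 4 enzymes that modify receptor sugars, 7 proteins of receptor cleavage, 7 of receptor turnover and trafficking, 8 coactivators and 6 corepressors. They were chosen by name, with earlier results of these arrays known. All 39 had a transcript cluster that names 1 gene only (a transcript cluster is the array's set of probes for 1 transcript unit), among 19752 genes measured this way. Where a gene had several clusters the brightest was used.

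Notch signalling passes between touching cells. A ligand of the Delta-like (Dll) or Jagged (Jag) family pulls on a Notch receptor, which is then cut by an ADAM protease and by gamma-secretase. The freed intracellular part enters the nucleus, binds RBPJ, and recruits a Mastermind-like protein (Maml) and histone acetyltransferases to target genes. Without that fragment RBPJ can hold corepressors such as Spen. Intracellular Notch1 made from a transgene needs no ligand, no ADAM and no gamma-secretase.

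Expression was measured on 15 Affymetrix Mouse Gene 1.0 ST arrays in 4 groups, all from 6-week-old males that carried Foxp3EGFPCre, an allele that makes Cre and green fluorescent protein in cells expressing Foxp3. The N1c_RBPJdel group had R26N1c/N1c, a transgene for intracellular Notch1, together with RBPJ∆/∆ (3 arrays). The N1c group had R26N1c/N1c (4 arrays), the RBPJdel group RBPJ∆/∆ (4 arrays), and the control group Foxp3EGFPCre alone (4 arrays). Each array carried amplified RNA of 40000 to 50000 sorted cells pooled from several mice, so p-values measure the spread between such pools. A FACSAria sorter was used for N1c_RBPJdel cells and a MoFlo for the other 3 groups, so in each comparison of N1c_RBPJdel genotype and sorter cannot be told apart. In cells sorted in bulk, fewer cells that express a gene and less RNA per cell cannot be told apart.

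Values are deposited intensities, and a difference is that between mean log2 intensities of 2 groups, given with its standard error (SE) from limma. A gene was called when limma's Benjamini-Hochberg adjusted p over all 19752 genes was under 0.05. The deleted gene Rbpj had 175 to 258 in N1c_RBPJdel and 225 to 294 in RBPJdel arrays, against 489 to 572 in N1c and 470.3 to 571 in control arrays, with no overlap between arrays with and without the deletion. All 9 measured genes of the Treg and CD4 T cell marker list lay above the array median on all 15 arrays. Arrays of the N1c_RBPJdel group stood apart in other respects. Arrays 1 and 3 had an interquartile range of 2.58 and 2.56 log2 units over all clusters, against 2.93 on array 2. It was 2.79 to 2.99 on control arrays, and the lowest values elsewhere were 2.69 on N1c 5 and 2.755 on RBPJdel 2. Array 2 stood out by limma's array weight, which is lower where an array departs more from its group. The weight was 0.311 on N1c_RBPJdel 2, the lowest of the 15 arrays, and 0.618 and 0.524 on arrays 1 and 3. Summed erythroid markers (5 of 8 measured) came to 531 to 1344 in N1c_RBPJdel, against 372 to 393 in control arrays, where 3 of the 5 were at or below the background level defined next.

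The ligands gave little signal in these cells. The 95th percentile of 1027 olfactory receptor clusters, whose genes are not known to be expressed in Treg, was 78.4 and served as a mark of background. Dll1, Dll3 and Jag1 had group means at or below it in all 4 groups, with ranges over the 15 arrays of 61.8 to 86.7, 54.9 to 76.3 and 47.2 to 74.3. Dll4 (80.4 to 116) and Jag2 (90.04 to 138) lay above it on all 15 arrays, but above the array median, which was 107 to 117, on only 3 and 4 arrays. Of 8 endothelial and stromal markers 4 (Cdh5, Kdr, Tek and Pdgfrb) also lay at or below the background level in every group, while Pecam1 (773 to 1317), Col1a1 (144 to 204), Col3a1 (99.3 to 142) and Ccl19 (101 to 169) lay above it on all 15 arrays.

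The receptor Notch2 and most of the machinery that acts inside the receiving cell were well above background. Notch2 ranged from 462 to 1142 over the 15 arrays. The receptor Notch4, at 90.8 to 133, lay near the array median, in a range like that of Jag2. Of the sugar-modifying enzymes, Lfng had 967 to 2364, Mfng 307 to 613, Rfng 117 to 213, and Pofut1, which attaches O-fucose, 241 to 315. The proteases Adam10 and Adam17 and the gamma-secretase subunits Psen2, Ncstn, Psenen and Aph1a exceeded the array median on all 15 arrays, whereas the alternative subunit Aph1b did so on 5. All 8 coactivators did so on 15 arrays. Among the corepressors Tle1 did so on 1 array, and Spen, Hdac1, Cir1, Ctbp1 and Tle3 on all 15. Levels of different genes cannot be set against each other, since each cluster has its own probes.

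**Figure D1:**
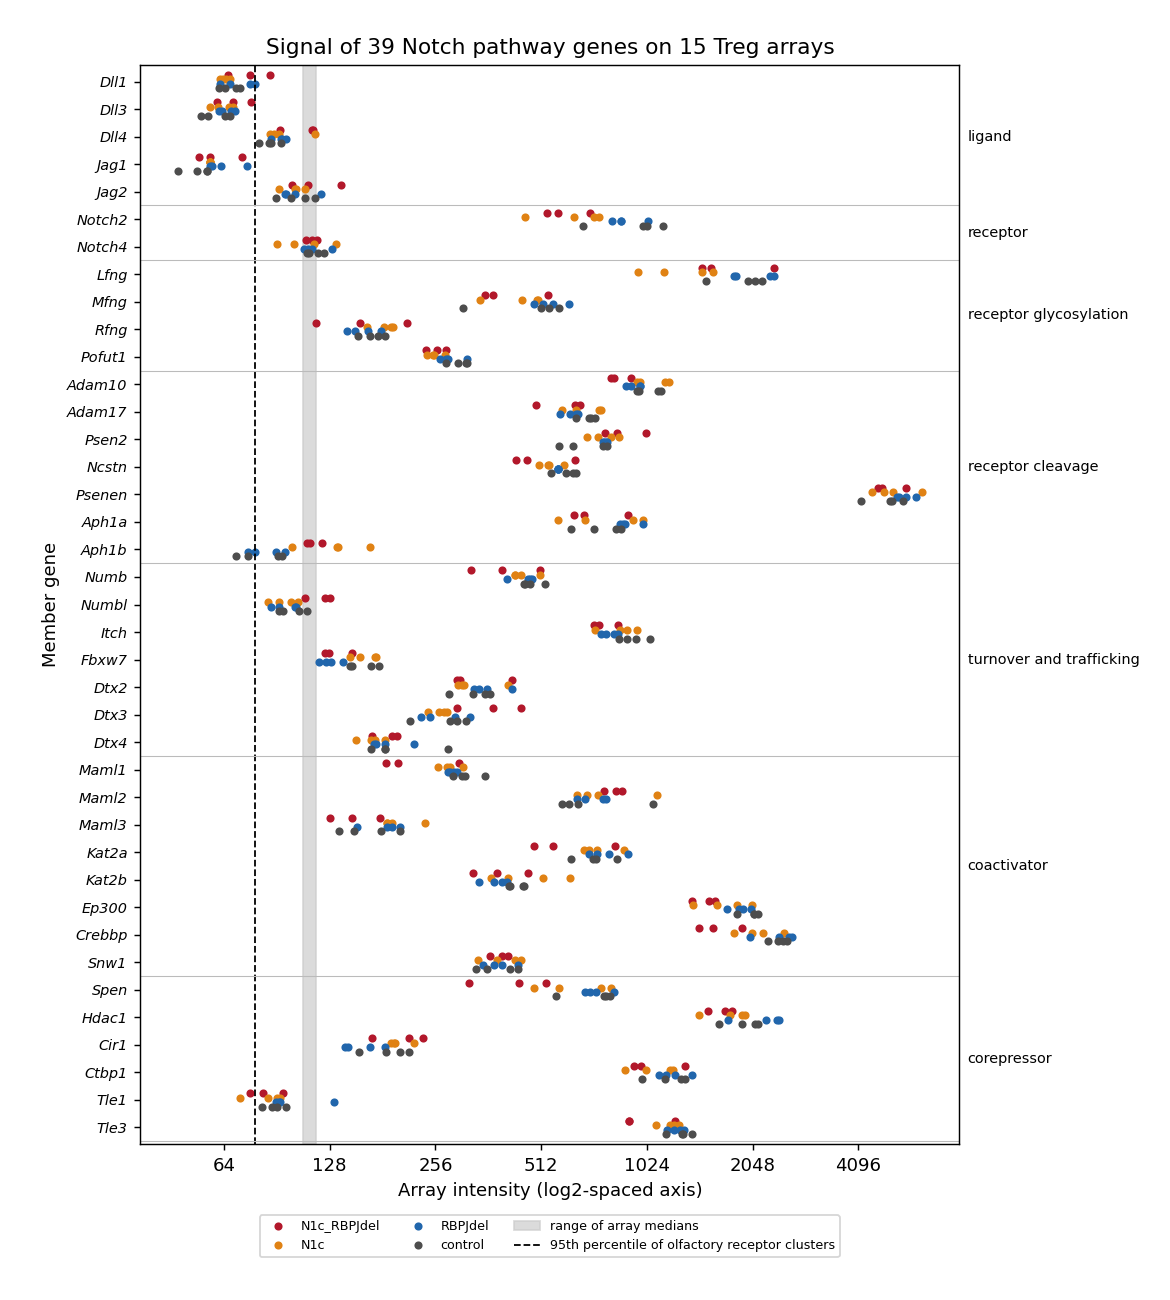
Intensity of the 39 genes on each of the 15 arrays (points, coloured by group; horizontal axis log2-spaced), grouped by role. The dashed line is the 95th percentile of olfactory receptor clusters (78.4) and the grey band the range of array medians (107 to 117); Dll1, Dll3 and Jag1 lie around or left of the line in all 4 groups.

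Exactly equal deposited values on 2 or more arrays occurred for 12 of the 39 genes and 35.9% of all clusters. Jag1 had 1 value on 6 arrays, and Ncstn and Dtx4 each had 1 value on 3. Equal values carry no spread between arrays.

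Comparing N1c with control asked whether forced Notch1 signalling changes the expression of the pathway's own parts. A single gene of the 39 was called, Aph1b, a subunit of gamma-secretase that can take the place of Aph1a. It had 167, 99.7, 135 and 134 in N1c arrays, against 91.0, 75.1, 69.3 and 93.5 in control arrays. Every N1c array lay above every control array, and control 3 and 4 lay below the background mark of 78.4. Aph1b rose by 0.69 ± 0.14 (SE, n = 4 and 4; 95% interval 0.40 to 0.99; limma adjusted p = 0.0122). The other cleavage genes had differences of -0.16 (Ncstn) to 0.17 (Psen2), and all 6 of their intervals lay within 0.5 of 0. Aph1c, a further Aph1 gene outside the 39, differed by 0.30 (95% interval -0.04 to 0.64, limma adjusted p = 0.722) and was not called. Whether the Aph1b probes also read Aph1c RNA was not tested. The count of 1 in 39, which is 2.56%, stands beside 1.65% called among all genes (0.937% higher, 0.714% lower).

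The call of Aph1b did not hold in every fit. With N1c and control fitted alone, its adjusted p was 0.0658. It was 0.0533 without control 3 and 0.0599 without control 4, the arrays below the background mark. N1c and control arrays with the same replicate number varied together (r = 0.341 to 0.497 over 3 pairs), which met the criterion for paired samples. Pairs with different numbers gave r = -0.426 to 0.371 (13 pairs), so the ranges overlap. The sample labels do not say what the number marks. With that number as a replicate block Aph1b differed by 0.67 (adjusted p = 0.0233) over all arrays and by 0.54 (adjusted p = 0.128) in the 2 groups alone.

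Notch2, a receptor, and Lfng, a fringe glycosyltransferase that extends O-fucose and alters which ligands a receptor answers to, had the next smallest p-values. Notch2 had 725, 746, 636 and 462 in N1c arrays, against 1142, 1023, 999.9 and 675 in control arrays (-0.58 ± 0.17, limma adjusted p = 0.120). Lfng had 1473, 1577, 1144 and 967 in N1c arrays, against 2079, 2184, 1988 and 1511 in control arrays (-0.60 ± 0.18, adjusted p = 0.126). In both cases N1c 5 and control 5 were the lowest arrays of their groups, and the groups overlapped only through control 5. Neither passed the threshold in the fit of all arrays without a block. Both did with the block, Notch2 with adjusted p = 0.000932 over all arrays and 0.0124 in the 2 groups alone, and Lfng with 0.0124 and 0.0222. Within the 3 numbered pairs, N1c minus control was -0.61, -0.65 and -0.55 for Notch2 and -0.40, -0.80 and -0.64 for Lfng, and for Aph1b it was 0.13, 0.97 and 0.52. All pairs had the same sign for each of these genes. Both Notch2 and Lfng were also called with quantile normalization (adjusted p = 0.0472 and 0.0482) and with array weights (0.00592 and 0.0195).

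**Figure D2:**
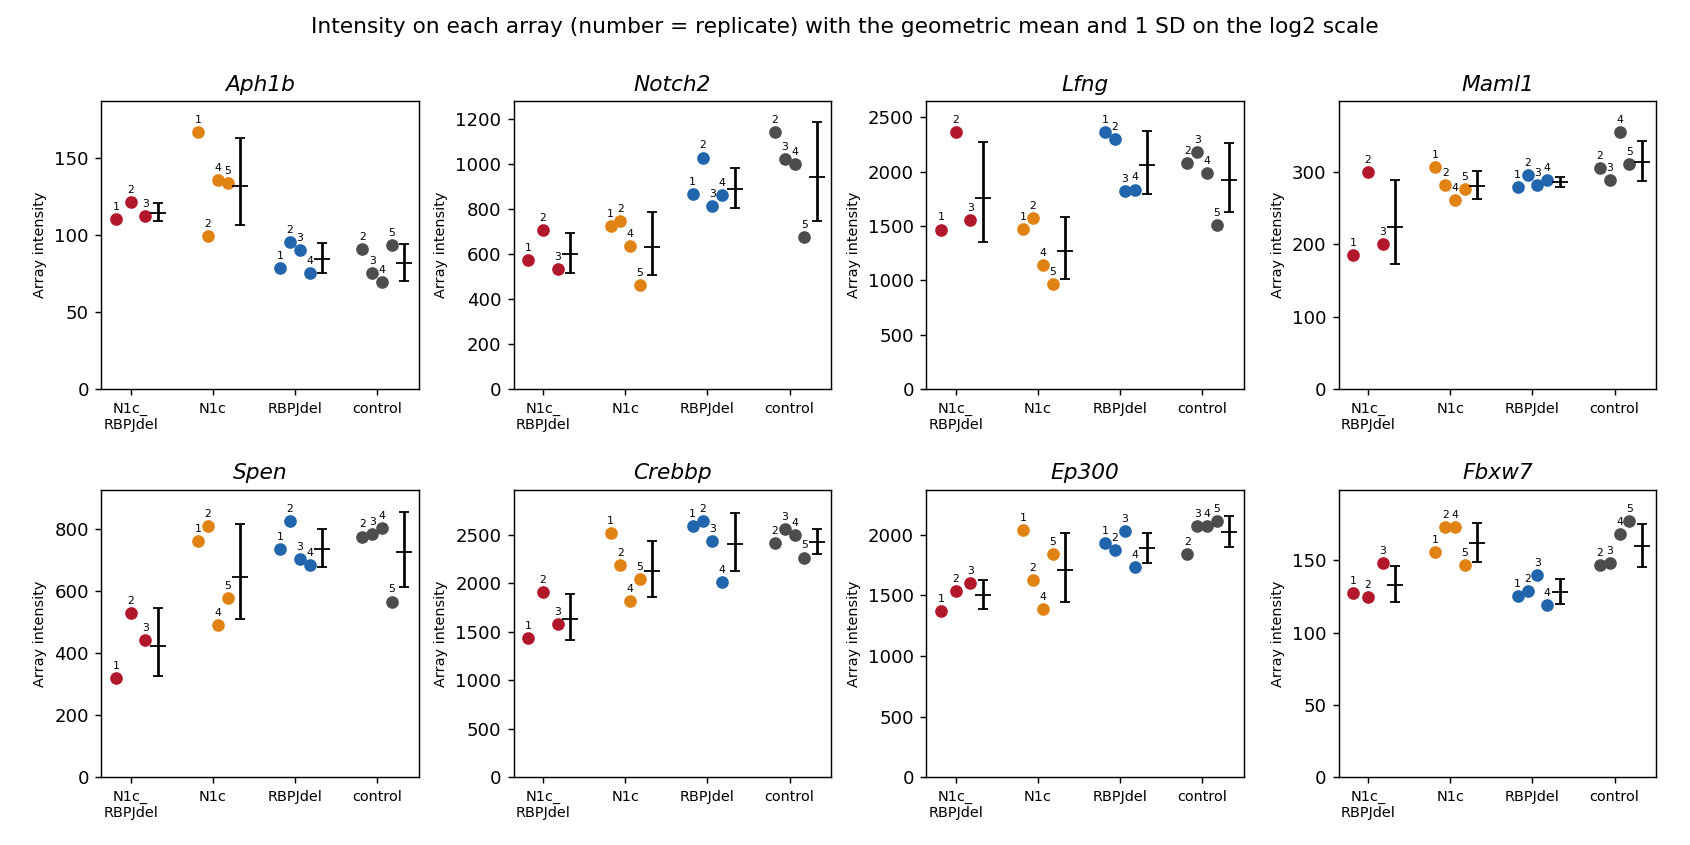
Array intensity (vertical axes, from 0) of 8 genes on each array, numbered by replicate, with the geometric mean and 1 SD on the log2 scale in black. Aph1b lies between 99.7 and 167 in N1c and at 95.5 or less in RBPJdel and control arrays, and Notch2 and Lfng are lowest on array 5 of both N1c and control.

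The upstream sequences of Lfng and Aph1b are shown, since RBPJ is known to bind DNA with the core TGGGAA. Of these genes, Aph1b was called in the main fit of N1c against control, and Lfng only in some of the other fits above. Each sequence runs 5′ to 3′ on the gene's strand, from 250 bases before to 50 bases after 1 annotated start (RefSeq, GRCm38.p6). Any TGGGAA or its reverse complement TTCCCA is in capitals. Lfng lies on the plus strand at chr5:140607091-140607390 and Aph1b on the minus strand at chr9:66795374-66795673. The annotated Aph1b gene reaches chr9:66797345, so its window lies inside the gene and not at its 5′ end.
Lfng: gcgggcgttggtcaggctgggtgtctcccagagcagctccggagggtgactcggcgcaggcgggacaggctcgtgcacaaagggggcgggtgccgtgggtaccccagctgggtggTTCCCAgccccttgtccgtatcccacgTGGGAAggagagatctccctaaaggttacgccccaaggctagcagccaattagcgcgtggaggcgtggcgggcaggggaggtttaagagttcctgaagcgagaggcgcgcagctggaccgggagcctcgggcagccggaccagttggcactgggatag
Aph1b: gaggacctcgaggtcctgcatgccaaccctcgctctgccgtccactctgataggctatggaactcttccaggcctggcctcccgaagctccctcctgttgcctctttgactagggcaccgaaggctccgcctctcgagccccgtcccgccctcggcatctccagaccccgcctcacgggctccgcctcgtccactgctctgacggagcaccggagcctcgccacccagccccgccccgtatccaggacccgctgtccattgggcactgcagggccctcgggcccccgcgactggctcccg
The Lfng sequence held the core at 135 and at 108 bases before the start (first base of each match). The match at 108 bases was also the longer GTGGGAA, and the Aph1b sequence held none. The sequence of Notch2, which was called in the same fits named above as Lfng, also held none and is not shown. On either strand the core occurred in 25.6% of 32851 mouse promoters of the same length and in at least 1 promoter of 28.3% of genes. It occurred in 9 of the 33 members with a promoter entry, which is 27.3% (Maml2, Maml3, Psen2, Psenen, Aph1a, Lfng, Spen, Dtx2 and Kat2a). The longer GTGGGAA, which contains the core, occurred for 4 of the 33 (Psen2, Aph1a, Lfng and Spen), 12.1% against 7.25% of all genes. Itch, Mfng, Dtx3, Dtx4, Snw1 and Hdac1 had no entry. A match of letters is not a binding site.

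In the main fit, which pairs no arrays, no other gene of the 39 was called in N1c against control. Pofut1 (-0.23, 95% interval -0.42 to -0.05) and the acetyltransferase Ep300 (-0.25, -0.48 to -0.01) had an unadjusted p under 0.05, as did 5 of the 39 in all (12.8%, against 8.21% of all genes). Of the ligands above background, Dll4 differed by 0.14 and Jag2 by -0.03. Differences were -0.25 to 0.28 for the 8 coactivators and -0.17 to 0.09 for the 6 corepressors. The median over the 39 was -0.05, against -0.01 over all genes. The intervals of 32 of the 39 lay within 0.5 of 0 and those of all 39 within 1. For 3 of the 39 the arrays of the groups did not overlap (Aph1b and Jag1 higher, Pofut1 lower), 7.69% against 5.73% of all genes, and the 4 N1c values of Jag1 were among the 6 equal ones.

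Of 35 other genes of the pathway, 32 were measured, and of these 6 were called higher in N1c, 0 lower and 26 not called, with a median of 0.03. The 6 were the transcriptional repressors Hes1, Heyl (2.57), Hey1 (2.27) and Hey2, Dtx1 (1.47), a Deltex ubiquitin ligase, and Nrarp (1.47), an ankyrin protein that limits Notch signalling. Hes1 averaged 626 in N1c and 65.6 in control arrays, which is below the background mark, so it was at least 7.98-fold higher. Hey2 lay below the mark on all 15 arrays. All of these are known Notch targets, and the list was drawn up with results of these arrays known. Of its relatives among the 39, Dtx2, Dtx3 and Dtx4 were not called, with differences of -0.01, -0.06 and -0.24.

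Comparing RBPJdel with control asked whether loss of RBPJ alone changes these genes. None of the 39 was called by limma, against 0.111% of all genes (22 of 19752), and 3 had an unadjusted p under 0.05, which is 7.69% against 6.74%. The smallest p belonged to Fbxw7, the substrate receptor of a ubiquitin ligase that marks intracellular Notch for destruction. Fbxw7 had 125, 129, 139 and 119 in RBPJdel arrays, against 146, 148, 168 and 177 in control arrays. All RBPJdel arrays lay below all control arrays (-0.32 ± 0.10, 95% interval -0.52 to -0.11, adjusted p = 0.499).

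Jag1, below the background mark on all 15 arrays, had 58.3, 74.3, 59.2 and 62.6 in RBPJdel arrays, against 57.4, 57.3, 47.2 and 53.7 in control arrays (adjusted p = 0.709). Itch, a ubiquitin ligase that acts on Notch receptors, had 757, 781, 827 and 849 in RBPJdel arrays, against 1047, 951, 898 and 851 in control arrays (-0.22 ± 0.10, adjusted p = 0.722). The groups did not overlap for Jag1, Itch, Fbxw7 and Kat2b (10.3%, against 5.89% of all genes), but for Itch the gap was between 849 and 851. The genes named in N1c lay near 0 here, Aph1b at 0.05 (-0.25 to 0.34), Notch2 at -0.08 (-0.43 to 0.27) and Lfng at 0.10 (-0.27 to 0.47). The intervals of 34 of the 39 were within 0.5 of 0 and those of all 39 within 1. The median was -0.00, against 0.03 over all genes. Of the other pathway genes, Dtx1 (-2.12) and Rbpj itself (-0.90) fell and none rose.

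**Figure D3:**
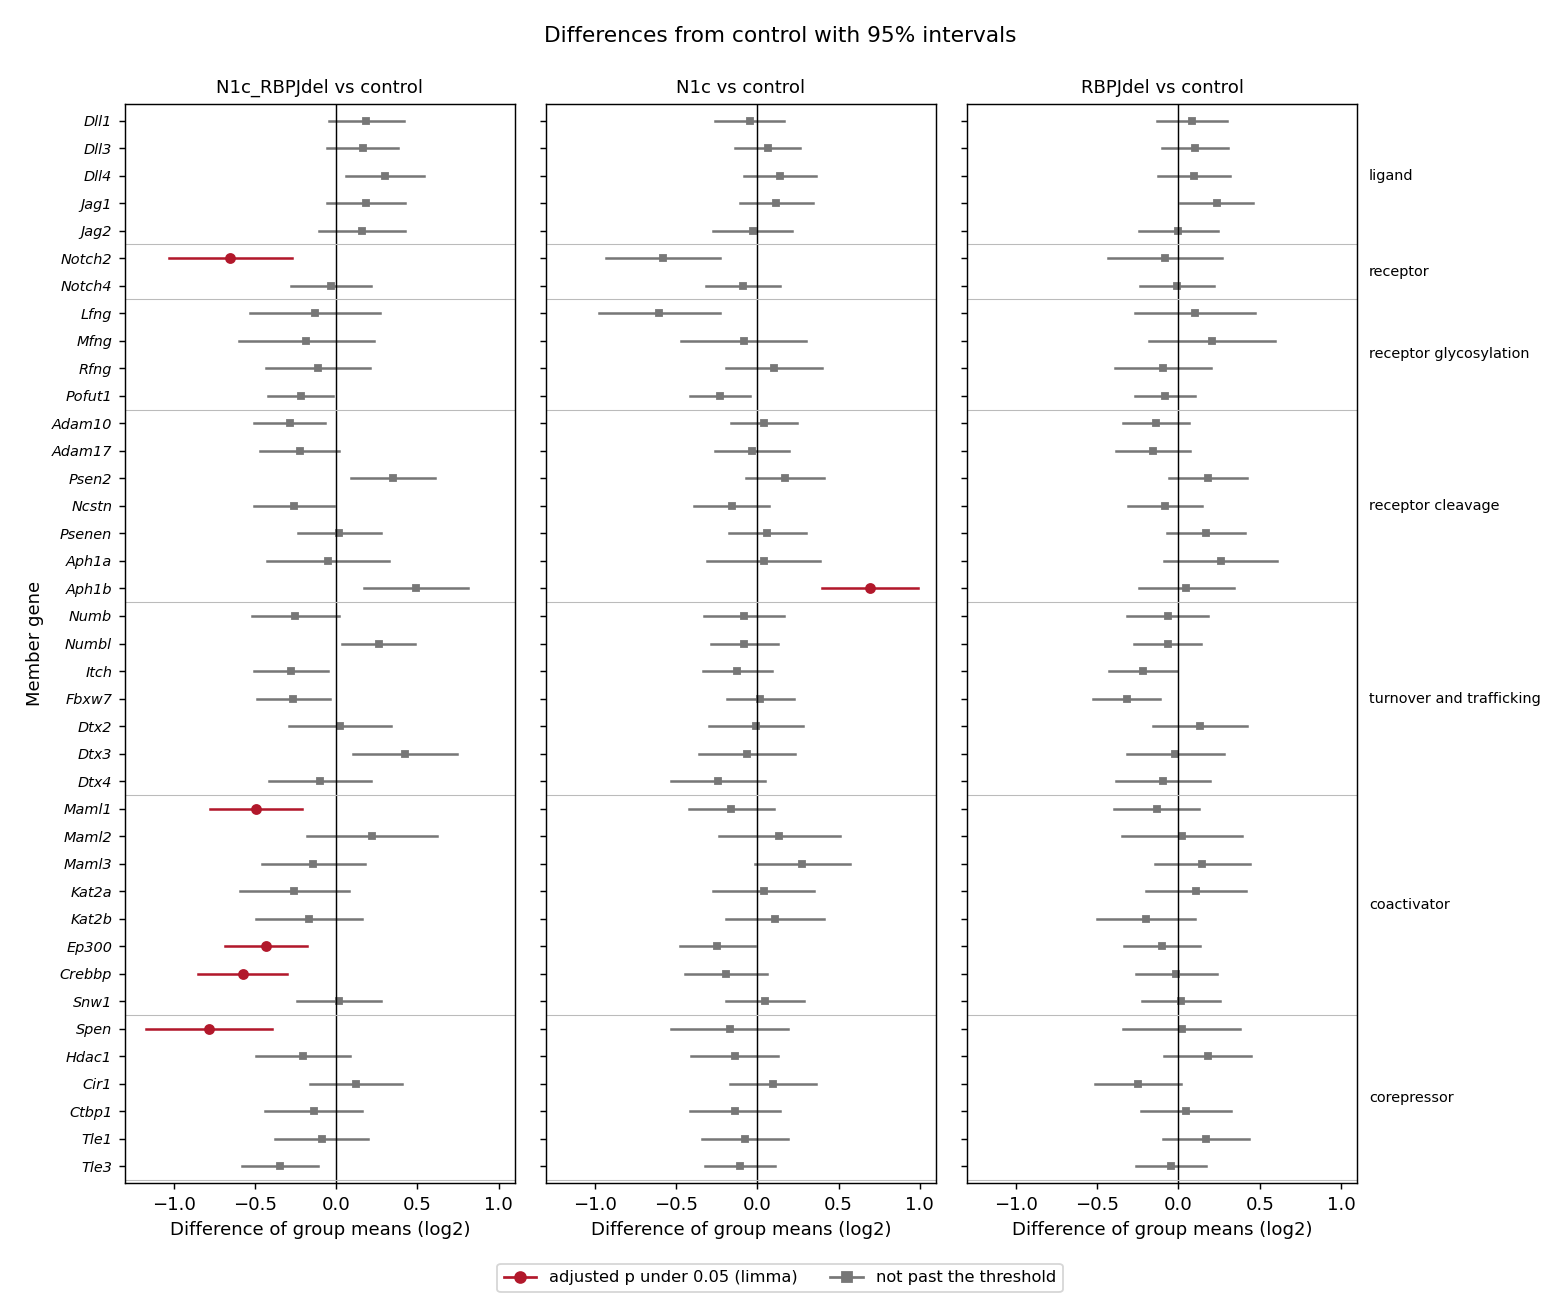
Difference of group means from control (log2, points) with 95% intervals (lines) for the 39 genes in N1c_RBPJdel, N1c and RBPJdel, from the main fit without pairing. Red circles passed limma's adjusted p of 0.05. Red marks are 5 in N1c_RBPJdel, all to the left of 0, 1 in N1c (Aph1b, to the right) and none in RBPJdel; the 3 panels share the same 4 control arrays.

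Comparing N1c_RBPJdel with control asked how these genes differ when Notch1 is forced on and RBPJ is deleted together. Of the 39, 5 were lower and none higher (12.8% lower, against 5.12% of all genes lower, 3.77% higher and 8.90% called in all). All genes here include those below the background level, whereas most of the 39 lay above it. Shares among genes above that level are given by gene length below. At an unadjusted p under 0.05 there were 16 of the 39 (41.0%), against 26.4% of all genes. The 5 called were Spen, a large RNA-binding corepressor that RBPJ holds, the related acetyltransferases Crebbp (CBP) and Ep300 (p300), Maml1, which locks the Notch fragment to RBPJ, and the receptor Notch2. Of these 5, 3 are among the 8 coactivators.

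Spen had 319, 529 and 442 in N1c_RBPJdel arrays, against 775, 784, 802 and 566 in control arrays, all lower in N1c_RBPJdel (-0.78 ± 0.18, limma adjusted p = 0.0172). Crebbp had 1439, 1912 and 1580.5, against 2415, 2561, 2496 and 2268 in control arrays (-0.58 ± 0.13, adjusted p = 0.0134). Ep300 had 1374, 1539 and 1599, against 1843, 2069, 2070.4 and 2116 in control arrays (-0.43 ± 0.12, adjusted p = 0.0336). For these 3 genes no N1c_RBPJdel array reached a control array.

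Maml1 had 185, 299.5 and 200.5 in N1c_RBPJdel arrays, against 305, 288, 354 and 311 in control arrays (-0.49 ± 0.13, limma adjusted p = 0.0312). Notch2 had 573, 708 and 533 in N1c_RBPJdel arrays, against the control values given above (-0.65 ± 0.18, adjusted p = 0.0335). In both, N1c_RBPJdel 2 lay above at least 1 control array. For all 5 genes except Ep300, array 2 was the highest of the 3.

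The promoter of Spen is shown for the same motif, on the minus strand at chr4:141538548-141538847, in the same window and with the same capitals.
Spen: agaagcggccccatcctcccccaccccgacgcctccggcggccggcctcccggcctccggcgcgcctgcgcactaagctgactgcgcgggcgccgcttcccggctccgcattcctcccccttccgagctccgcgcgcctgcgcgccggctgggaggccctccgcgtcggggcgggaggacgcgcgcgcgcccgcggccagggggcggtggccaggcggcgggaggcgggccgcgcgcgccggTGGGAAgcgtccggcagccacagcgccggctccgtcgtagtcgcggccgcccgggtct
Its 1 match began 8 bases before the start used and was also a match to GTGGGAA. The annotated Spen gene reaches chr4:141538644, so this match lies inside the gene. Notch2, Crebbp, Ep300 and Maml1 had no match in this window.

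These calls rested on the particular arrays. None of the 39 was called without N1c_RBPJdel 1, 10 were without N1c_RBPJdel 2 and 3 without N1c_RBPJdel 3, while 2, 1 and 2 were called without control 2, 3 or 4. With N1c_RBPJdel 2 as the only array of its group, none was called, and the 5 differences were -0.45 for Spen, -0.35 for Crebbp, -0.39 for Ep300, -0.07 for Maml1 and -0.32 for Notch2. With the range of each array as a covariate, none of the 5 was called, with differences of -0.52 for Spen, -0.46 for Crebbp, -0.44 for Ep300, -0.30 for Maml1 and -0.32 for Notch2, and Psen2 alone was (0.56, adjusted p = 0.0141). These last 2 settings were chosen after the data were seen.

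Long genes were lower in general in this comparison. Genes above the background level were divided into quintiles by the genomic distance from first to last annotated base. From the shortest to the longest quintile, 1.14%, 2.65%, 4.59%, 10.6% and 22.8% were called lower in N1c_RBPJdel against control, and the median difference was 0.06 in the shortest and -0.21 in the longest. In the longest quintile 2.15% were called lower in N1c against control and 0.211% in RBPJdel against control. Notch2 (137 kb), Crebbp (133 kb), Spen (70.8 kb) and Ep300 (65.9 kb) were among the 12 members in the longest quintile, and Maml1 (37.5 kb) was in the next. The part that gene length, the narrower range of N1c_RBPJdel arrays 1 and 3, or other cells played in these calls was not tested.

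**Figure D4:**
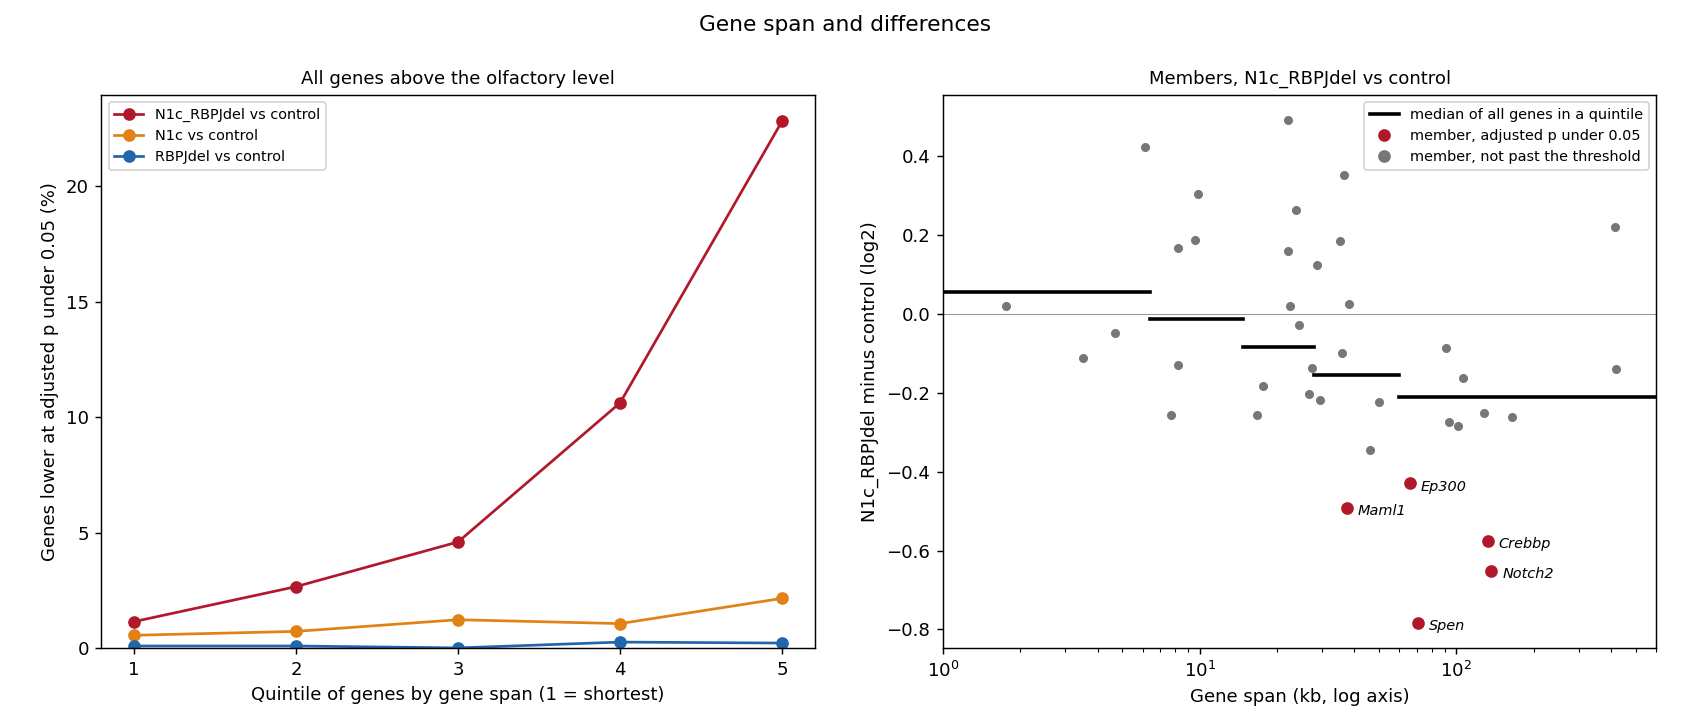
Left, percentage of genes called lower (vertical axis) in each quintile of gene span (1 = shortest) for the 3 comparisons with control; in N1c_RBPJdel it is 1.14% in the shortest and 22.8% in the longest. Right, difference of N1c_RBPJdel from control (log2) against gene span in kb (log axis) for the 39 genes, with black lines at the median of all genes in each quintile; 4 of the 5 called genes (red) lie in the longest quintile.

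Some markers of other cells moved in the same comparison. The erythroid carbonic anhydrase Car1 had 852, 400.0 and 137 in N1c_RBPJdel arrays, against 56.6 to 65.9 in control arrays (limma adjusted p = 0.00180). The control arrays lay below the background mark, so Car1 was at least 4.59-fold higher. Of 5 erythroid markers 2 were called higher (Car1 and Slc4a1), of 7 neutrophil markers 2 (S100a9 and Ngp), and of 7 B cell markers 3 (Ms4a1, Cd79a and Cr2). None of 7 macrophage and monocyte, 6 dendritic cell and 5 CD8 T and NK cell markers was called. Of 8 endothelial and stromal markers 1 was called, Pecam1, which was lower (-0.51). Pecam1 differed by -0.40 in N1c against control, where it was not called. The endothelial markers Cdh5, Kdr and Tek lay at or below the background level in every group. Which cells the Pecam1 signal came from was not tested. S100a9 averaged 105 in N1c_RBPJdel and 52.4 in control arrays, at least 1.34-fold higher against the mark. Summed neutrophil markers came to 484 to 563 in N1c_RBPJdel against 359 to 407 in control arrays, and summed B cell markers to 677 to 994 against 603 to 676. The B cell sum was 684 to 809 in RBPJdel arrays, which overlaps N1c_RBPJdel. The group means of Cd79a, Ms4a1, Cr2 and Ngp stayed at or below the background level in N1c_RBPJdel and control alike. Car1, Slc4a1, S100a9, Ngp, Cd79a and Ms4a1 were also called higher in N1c_RBPJdel against N1c and against RBPJdel. Against N1c, 1 of 7 macrophage and monocyte, 1 of 6 dendritic cell and 1 of 9 Treg and CD4 T cell markers were called higher too. Against RBPJdel 0 of each of these 3 lists were called. Summed Treg and CD4 T cell markers were 31254 to 35639 in N1c_RBPJdel against 33608 to 35939 in control arrays.

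Among the members not called in this comparison, Aph1b came nearest. It had 110.3, 121 and 113 in N1c_RBPJdel arrays, all above the control range (0.49 ± 0.15, adjusted p = 0.0511). The corepressor Tle3 (-0.34, adjusted p = 0.0602), Psen2 (0.35, 0.0816) and the Deltex ligase Dtx3 (0.42, 0.0879) followed. Of the ligands above background, Dll4 differed by 0.30 and Jag2 by 0.16, and no ligand was called. The groups did not overlap for 6 of the 39 (15.4%, against 18.7% of all genes), Aph1b higher and Adam10, Itch, Spen, Ep300 and Crebbp lower. The median of the 39 was -0.13, against 0.02 over all genes, and the intervals of 21 lay within 0.5 of 0. Among the other pathway genes Rbpj (-1.25), Dtx1 (-1.04), Mib1 (-0.54), Poglut1 (-0.53) and Hdac2 (-0.42) were lower and Hey1 (0.43) higher. Mib1 is a ubiquitin ligase that activates ligands, and Poglut1 attaches O-glucose to Notch.

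Setting N1c_RBPJdel against N1c asked what deletion of Rbpj does under forced Notch1. Of the 39, 1 was called, Spen, which was lower (2.56%, against 9.23% of all genes called, 4.65% lower and 4.58% higher). In the longest quintile of genes, which holds Spen, 16.1% were called lower. An unadjusted p under 0.05 was seen for 11 of the 39 (28.2%, against 26.5% of all genes). The N1c arrays of Spen were 760.2, 807, 489 and 575, and overlapped with N1c_RBPJdel 2 (-0.61 ± 0.18, limma adjusted p = 0.0454). This call was the least steady, since it was lost in 14 of 25 alternatives. Leaving out any of N1c_RBPJdel 1 and 3, N1c 1 and 2, RBPJdel 1, 2 and 3, or control 2, 3 and 4 ended it (adjusted p over all alternatives 0.00591 to 0.583).

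Numbl, a relative of the Notch antagonist Numb, had 128, 124 and 109 in N1c_RBPJdel arrays, against 91.8, 85.2, 99.0 and 104 in N1c arrays (0.34 ± 0.11, adjusted p = 0.0523). Dtx3 had 294, 449.8 and 373, against 243, 262, 270.0 and 275 in N1c arrays (0.48 ± 0.15, adjusted p = 0.0531). In both the groups did not overlap, and neither passed the threshold. Lfng had 1468, 2364 and 1558 in N1c_RBPJdel arrays, against the N1c values above, a difference of 0.47 ± 0.19 (adjusted p = 0.125). With quantile normalization Lfng was called (0.62, adjusted p = 0.0315), as with array range as a covariate (0.80, adjusted p = 0.0116), a setting chosen after the data were seen. Aph1b was -0.20 (95% interval -0.52 to 0.12) and Notch2 -0.07 (-0.45 to 0.31). The median was -0.06, against 0.02 over all genes.

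Of the 32 other pathway genes, 8 were lower in N1c_RBPJdel than in N1c and none higher. The 6 with the smallest p were Heyl (-2.23), Hey1 (-1.84), Hes1, Dtx1 (-2.51), Rbpj (-1.32) and Nrarp (-1.53). Hes1 averaged 78.3 in N1c_RBPJdel, just under the background mark, and 626 in N1c arrays, so it was at least 7.17-fold lower.

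Setting N1c_RBPJdel against RBPJdel asked what forced Notch1 does once Rbpj is deleted. Of the 39, Crebbp and Spen were lower and none was higher (5.13%, against 2.29% of all genes called, 0.967% lower and 1.32% higher). An unadjusted p under 0.05 was seen for 12 of the 39 (30.8%, against 21.2% of all genes). Crebbp had 2597, 2649, 2437 and 2013 in RBPJdel arrays (-0.56 ± 0.13, limma adjusted p = 0.0319) and Spen 735, 826, 703 and 684 (-0.80 ± 0.18, adjusted p = 0.0323), and all lay above the N1c_RBPJdel arrays given above. Notch2 had 866, 1029, 815 and 864 in RBPJdel arrays, also above all 3 N1c_RBPJdel arrays (-0.57 ± 0.18, adjusted p = 0.0922). Neither of the 2 calls held without N1c_RBPJdel 1 or 3 or without RBPJdel 1, 2 or 3. Each of these left 0 of the 39 called, while 8 of the 39 were called without N1c_RBPJdel 2. In the longest quintile of genes 3.71% were lower. Aph1b, with 78.5, 95.5, 90.3 and 75.1 in RBPJdel arrays, was 0.44 higher (95% interval 0.12 to 0.76, adjusted p = 0.112). Of the other pathway genes 1 was called, Dtx1 (1.08). The 3 comparisons of N1c_RBPJdel share its 3 arrays and are not independent of each other.

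The interaction asked whether the N1c difference was itself unlike with and without deletion of Rbpj. None of the 39 was called by limma, against 0.840% of all genes, and 4 had an unadjusted p under 0.05 (10.3%, against 12.9%). Numbl (0.41 ± 0.14, adjusted p = 0.229), Maml3 (-0.56 ± 0.20, adjusted p = 0.241) and Spen (-0.64 ± 0.25, adjusted p = 0.285) had the smallest p. Maml3 had 128, 178 and 148 in N1c_RBPJdel, 193, 187, 187 and 239 in N1c, 187, 203, 192 and 153 in RBPJdel, and 150.1, 180, 136 and 202 in control arrays. For Numbl the RBPJdel arrays were 87.3, 103, 91.6 and 102 and the control arrays 94.1, 92.1, 105 and 110.5. For Aph1b the interaction was -0.25 (95% interval -0.68 to 0.18), for Notch2 0.01 (-0.51 to 0.53) and for Lfng 0.37 (-0.18 to 0.91), and each interval includes 0. Heyl, Hey1, Hes1 and Nrarp were lower in the interaction among the 32 other genes (-2.43 for Heyl, -1.80 for Hey1 and -1.60 for Nrarp, with group means of Hes1 below the background mark in all but N1c).

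A test for any difference among the 4 groups called 4 of the 39 (10.3%, against 7.67% of all genes): Aph1b (limma adjusted p = 0.00962), Crebbp (0.0255), Spen (0.0294) and Notch2 (0.0355). Aph1b was called in all 24 alternatives of this test, and the other 3 in 15 to 19 of them. Lfng (0.0549) and Fbxw7 (0.0585) did not pass. For 5 genes a second cluster was measured. Those of Psenen, Aph1a and Hdac1 followed the brightest cluster closely (r over the 15 arrays 0.997, 0.992 and 0.976), and that of Cir1 less so (0.828). The second cluster of Maml2 followed it little (0.300), and N1c_RBPJdel minus control was 0.22 in the first and -0.17 in the second. Snw1, a nuclear cofactor of the Notch complex, had differences of 0.01 to 0.05 from control in the 3 groups, Ctbp1 -0.14 to 0.05 and Dtx2 -0.01 to 0.13. Their intervals against control all lay within 0.5 of 0.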

How the data were processed

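The authors used RMA, run in Affymetrix Power Tools, to make 1 value per transcript cluster and array, per the submitters' processing notes. The sources used here give neither versions nor filters. Deposited values are intensities on a linear scale (5.61 to 18030, medians 107 to 117), and were converted to log2. Of 24922 features, 21425 named 1 gene and gave 19752 genes, the brightest feature standing for a gene. With limma 3.58.1 (R 4.3.3) 1 linear model of group means covered all 15 arrays (11 residual and 6.15 prior degrees of freedom), with p-values two-sided and adjusted over all 19752 genes. The number of arrays limits the precision. The script was tested on simulated data. Members and lists were chosen with earlier results of these data known. Every member is named, with each array's values for those called in any comparison and for the 3 of smallest p in each. Other pathway genes are named where called, up to 6 per comparison, and Aph1c is named beside Aph1b. Residuals of N1c and control arrays sharing a number correlated at 0.341 to 0.497 (3 pairs) and met the pairing rule, while other groups did not. Those with different numbers correlated at -0.426 to 0.371 (13 pairs). Alternatives covered normalization, array weights, a variance trend, mean of clusters, dim clusters, the replicate block, 2 groups alone and each array left out. Promoter sequences are from RefSeq (GRCm38.p6).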

Additional observations from a re-analysis of the deposited data

Results flagged for a closer look

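A highest or lowest array stood far from the others of its group in 7 of 117 tests of 39 genes in 3 groups of 4 arrays (Dixon's test, critical value 0.829), where chance gives about 1 in 20. The group of 3 arrays, N1c_RBPJdel, was not tested. On the high side were Maml3 on N1c 5 (239, others 187 to 193), Dtx2 on N1c 1 (413, others 298 to 309), Tle1 on RBPJdel 4 (132, others 90.0 to 92.7) and Ncstn on RBPJdel 2, where 573 stood beside 3 equal values of 570.3. On the low side were Numb on RBPJdel 4 (409, others 469 to 482), Spen on control 5 (566, others 775 to 802) and Ep300 on control 2 (1843, others 2069 to 2116). The Spen and Ep300 arrays narrow the distance between N1c_RBPJdel and control for those genes; without control 5 the difference of Spen was -0.90 (adjusted p = 0.00896) and without control 2 that of Ep300 was -0.47 (adjusted p = 0.0507).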

How the results depend on the processing

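No difference that was called turned its sign in any alternative. Of 226 alternative values for the 9 called differences, 156 stayed past the threshold and 70 did not. In N1c against control, 3 members were called with quantile normalization, array weights, the replicate block over all arrays or array range as a covariate (Aph1b higher, Notch2 and Lfng lower in each), 2 with the replicate block in the 2 groups alone (Notch2 and Lfng) and 2 without control 5 and N1c 5 (Aph1b and Notch2), but 0 in the 2 groups alone. In N1c_RBPJdel against control, 11 were called with the block, 9 without control 5 and N1c 5, 1 in the 2 groups alone, 1 with array range as a covariate and 0 with N1c_RBPJdel 2 as the only array of its group. Against N1c the count was 6 with the block, 4 without control 5 and N1c 5, 2 with quantile normalization, dim clusters left out or array range, and 0 in the 2 groups alone. Against RBPJdel it was 5 with the block, 1 with quantile normalization, and 0 in the 2 groups alone, with N1c_RBPJdel 2 alone or with array range. With the block the interaction called 1 member, Maml3 (-0.65, adjusted p = 0.0400). The test for any difference called 9 with the block, 8 with array weights and 2 with N1c_RBPJdel 2 alone. The block also tied groups that the pairing rule had not paired. With 1 array left out, members called ranged over 0 to 2 in N1c against control, 0 to 10 in N1c_RBPJdel against control, 0 to 7 against N1c, 0 to 8 against RBPJdel and 1 to 9 for any difference, and stayed at 0 for RBPJdel against control and the interaction. Where 1 array stands for N1c_RBPJdel it is assumed to vary like the other groups. Over all genes, N1c against control gave 326 calls, 733 with array weights, 494 with the block and 217 to 383 with 1 array left out, and RBPJdel against control 22, and 189 with array weights. N1c_RBPJdel against control gave 1757 calls, 1169 with quantile normalization, 3767 with the block, 406 in the 2 groups alone, 732 with N1c_RBPJdel 2 alone, 2785 without control 5 and N1c 5, 839 with array range and 530 to 3088 with 1 array left out. Against N1c there were 1823, 3699 with the block, 561 in the 2 groups alone, 854 with N1c_RBPJdel 2 alone, 2900 without control 5 and N1c 5 and 903 to 3058 with 1 array left out. Against RBPJdel there were 452, 229 with dim clusters left out, 2107 with the block, 98 in the 2 groups alone, 226 with N1c_RBPJdel 2 alone, 1049 without control 5 and N1c 5 and 76 to 1890 with 1 array left out. The interaction gave 166, 257 with array weights, 632 with the block and 101 to 478 with 1 array left out. Any difference gave 1514, 2322 with array weights, 3321 with the block, 955 with N1c_RBPJdel 2 alone and 788 to 2457 with 1 array left out. The cause of these shifts was not tested, and the fits with N1c_RBPJdel 2 alone, without control 5 and N1c 5 and with array range were chosen after the data were seen. Genes near the background level, such as Dll1, Dll3, Jag1 and, in control arrays, Aph1b, could change in RNA without a change in signal.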
